A study of Mus musculus with 20 samples.

Results

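Carbonic anhydrases interconvert carbon dioxide and water with bicarbonate and a proton. In the colon they supply the ions that surface cells exchange for chloride and sodium, and they sit on the route by which short-chain fatty acids and bicarbonate cross the epithelium. The isoforms differ mainly in where they work: some are soluble in the cytosol, some are anchored in the plasma membrane with the active site outside the cell, and a few have lost catalytic activity.

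The 8 genes described here are Car1, Car2, Car3, Car4, Car7, Car8, Car12 and Car13. They were chosen by symbol from the 26619 genes of the distal colon (DC) count table, through the Ensembl identifiers in GENCODE vM39. These members and the marker and transport lists below were chosen with earlier results of these data known. Their counts beside the share over all genes are therefore a description and not an independent test. All 8 had counts in each of the 20 mice and all 8 were among the 17893 genes that passed the filter on low counts. The C57BL/6 mice ate the Total Western Diet (TWD), a purified diet modelled on average American intake, for 6 weeks from 3 weeks of age, as the series description gives it. They then spent 3 weeks on the same diet with 0, 2, 5 or 10% raw potato starch, called resistant potato starch (RPS) here (n = 5 mice per diet). All groups, the 0% controls included, therefore shared the TWD, and a standard chow group was not analysed here. The DC piece was whole tissue from near the anal end, so that fewer cells of a type and less RNA per cell cannot be told apart.

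The libraries held 18.4 to 34.97 megacounts (M), and the RPS groups were sequenced less deeply, with 32.8 ± 1.35 M (SD, n = 5) at 0% RPS against 27.9 ± 2.61 M at 2%, 28.3 ± 3.40 M at 5% and 24.3 ± 3.42 M at 10%. For 3 mice the labels disagree. By its description, which set the groups here, RS10_717 received 5%, RS10_725 10% and RS10_748 2% RPS, whereas the treatment label gives 2%, 5% and 10%. The tissue expressed epithelial markers at 10931 to 17268.5 CPM (counts per megacount of scaled depth) summed over 7 genes. RS10_721 at 5% RPS stood apart through pancreatic enzyme transcripts, which summed to 5201 CPM over 8 genes against a median of 2.46 CPM in its diet group. RS10_784 at 10% RPS reached 464 CPM of the same list.

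The question the diets address for this family is whether any isoform changes with the amount of RPS, and whether the isoforms change alike. At 10% RPS the membrane-bound Car4 was 1.64-fold higher than in controls and was the only member called by edgeR, the main test. The membrane-bound Car12 had a difference of the same size, which passed over the dose series in edgeR and at 10% RPS alone only in DESeq2, run as an alternative. The cytosolic Car2 and Car7 had lower means at 10% RPS and did not pass the test, and the abundant cytosolic Car1 had nearly the same mean at 0 and 10% RPS.

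Car13, Car1, Car3 and Car2 lie within 261 kb of chromosome 3, between 14706783 and 14967568 (GRCm39). Car13 occupies 14706783 to 14728077 on the plus strand, Car1 14831269 to 14873459 on the minus strand, Car3 14928489 to 14937595 on the plus strand and Car2 14951317 to 14967568 on the plus strand. The other members are scattered, with Car4 on chromosome 11 (84848020 to 84856879), Car7 on chromosome 8 (105261321 to 105276994), Car8 on chromosome 4 (8141533 to 8239088) and Car12 on chromosome 9 (66615426 to 66674186). All are protein-coding genes. Whether reads shared by similar isoforms were split in the counting is not stated.

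Promoter sequences are shown for Car12, a member with a dose trend, and for Car1, an abundant member without one, as 250 bases before the canonical GENCODE start, read from GRCm39 5′ to 3′ on the strand of the gene. Capitals mark matches on either strand to TATAAA (the TATA box), ACGTG (the core of the hypoxia response element), TTTATG (a form of the CDX motif) or CAAAGT (part of the HNF4 motif). The Car12 window, chr9:66620467-66620716, overlaps no annotated exon and lies inside the gene span, which begins at another annotated start. The Car1 window, chr3:14843520-14843769 (minus strand), also lies inside the gene span, which begins upstream at another annotated start.
Car12: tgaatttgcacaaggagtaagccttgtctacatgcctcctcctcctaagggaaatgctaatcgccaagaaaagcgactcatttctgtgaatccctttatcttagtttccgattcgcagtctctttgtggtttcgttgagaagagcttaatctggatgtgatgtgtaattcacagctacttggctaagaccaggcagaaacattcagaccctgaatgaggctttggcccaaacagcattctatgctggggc
Car1: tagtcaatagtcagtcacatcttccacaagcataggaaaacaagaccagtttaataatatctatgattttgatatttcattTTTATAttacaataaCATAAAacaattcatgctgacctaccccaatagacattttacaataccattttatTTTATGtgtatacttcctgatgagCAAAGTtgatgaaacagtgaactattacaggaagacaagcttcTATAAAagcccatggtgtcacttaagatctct
The Car1 window held 5 matches, 2 to the TATA box, 2 to the CDX motif and 1 to the HNF4 motif, with the nearest TATAAA beginning 32 bases before the start. The Car12 window held 0 matches. Among 21770 protein-coding windows of this length, 11.9% held TATAAA, 17.0% ACGTG, 10.0% TTTATG and 13.4% CAAAGT. The Car1 window had 31.2% GC and the Car12 window 45.2%, against a median of 53.2%. The window of Car4 lies within an exon of another annotated Car4 transcript and is not shown. It held 0 matches and had 50.8% GC. The window of Car2, an abundant member without a trend, also held 0 matches, had 57.6% GC and is not shown. A relation of these matches to the diet was not tested.

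Levels between genes were compared as CPM per kb of the canonical transcript. Car1, Car4 and Car2 together held 97.5 to 99.6% of the members' summed level in every mouse. At 0% RPS the mean level was 1095 CPM per kb for Car1, 742 for Car4 and 537 for Car2. Neighbours in this order overlapped between mice, and Car2 lay clear of the next gene, Car3, at 12.9 CPM per kb. Car13 followed at 6.68, Car12 at 1.30, Car7 at 1.26 and Car8 at 0.998 CPM per kb. At 10% RPS Car4 came first with 1213 CPM per kb, next to Car1 with 1164, and their ranges overlapped. Car2, at 428 CPM per kb, lay below both without overlap. The summed level of the 8 genes was 2398 ± 435 CPM per kb at 0% RPS and 2840 ± 205 at 10% RPS (SD, n = 5).

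Within that sum the share of Car4 was 31.4 ± 5.30% at 0% RPS, 36.5 ± 6.27% at 2%, 37.5 ± 4.93% at 5% and 42.9 ± 4.31% at 10%. The share of Car2 was 22.7 ± 6.81% at 0% and 15.3 ± 3.54% at 10% RPS, and that of Car1 was 44.8 ± 7.07% and 40.6 ± 6.43%. Shares are given as a description without a test, and with the union of all annotated exons as length the share of Car4 was 26.4% at 0% and 36.5% at 10% RPS.

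**Figure D1:**
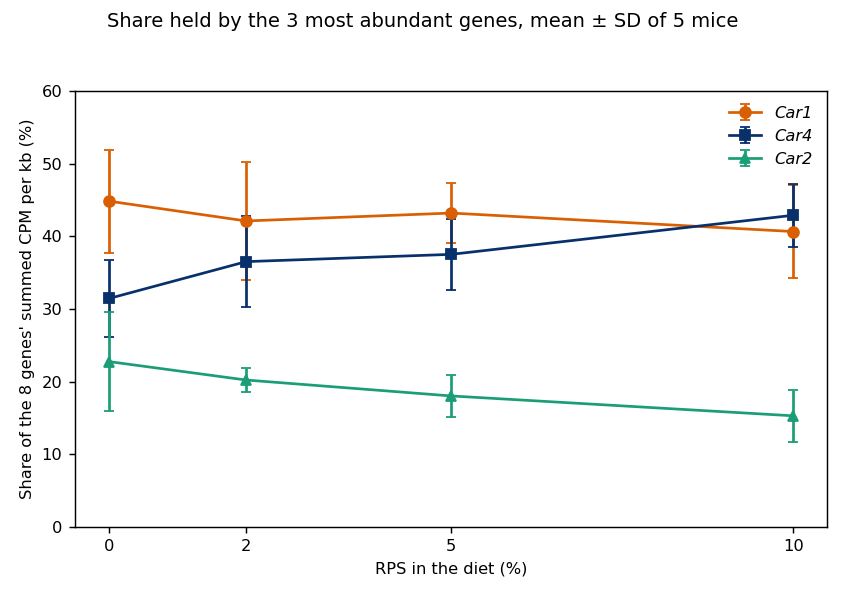
Share of the summed CPM per kb of the 8 genes held by Car1, Car4 and Car2 (y axis, percent) against RPS in the diet (x axis, percent), as the mean of 5 mice with SD. Car4 goes from 31.4 to 42.9% while Car2 goes from 22.7 to 15.3%, and the bars of Car1 and Car4 overlap at 10% RPS.

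Car4 is anchored to the outer face of the apical membrane by a lipid tail and provides bicarbonate and protons at the cell surface. In the control mice it measured 886, 1043, 1137, 1166 and 1348 CPM. With 2% RPS the values were 1083, 1256, 1284, 1316 and 1452 CPM, and with 5% they were 1239, 1308, 1621, 1685 and 1806 CPM. Mice on 10% RPS had 1611, 1788, 1879, 1918 and 1927 CPM. Each of the 5 values at 10% RPS exceeded the highest control, as did 3 of 5 at 5% and 1 of 5 at 2%, while neighbouring diets overlapped throughout. Of all tested genes, 1.13% had 10% RPS mice wholly above the controls. The log2 fold change at 10% RPS was 0.71 ± 0.11 (SE; 95% interval 0.47 to 0.94; edgeR quasi-likelihood test, adjusted p = 0.0102 over all tested genes). A call needed an adjusted p no higher than 0.05 and at least a 1.5-fold change. By this rule 1 of 8 members was called at 10% RPS, against 0.0391% of all tested genes, counted in both directions.

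The Car4 difference was smaller at the lower doses. At 5% RPS the log2 fold change was 0.46 ± 0.11 (edgeR adjusted p = 0.325, DESeq2 adjusted p = 0.0399 but under 1.5-fold), and at 2% RPS it was 0.20 ± 0.11 and did not pass in either tool. Fitted as a line over RPS percent, Car4 rose by 0.070 ± 0.010 log2 units per percent RPS (edgeR adjusted p = 0.00214). In the test of any difference among the 4 diets, 1 of 8 members passed, Car4 (edgeR adjusted p = 0.0356), against 0.0727% of all tested genes, and it no longer passed when any of 13 of the 20 mice was left out. DESeq2 passed 2 of 8, Car4 and Car12, against 2.01%.

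The Car4 call at 10% RPS depended on the labels of the 3 mice and on the mice in the fit. With the treatment label as the group the log2 fold change was 0.60 (edgeR adjusted p = 0.372), and without the 3 mice it was 0.70 (edgeR adjusted p = 0.0786). In either setting edgeR called 0 of all tested genes at 10% RPS. Of the 3 mice, RS10_748 had 1284 CPM of Car4, RS10_717 had 1621 CPM and RS10_725 had 1927 CPM. With only the 0 and 10% mice in the fit the log2 fold change of Car4 was 0.71 (edgeR adjusted p = 0.0550), and 3 of 17271 tested genes were called. Leaving out any 1 mouse from the full fit kept the Car4 call (edgeR adjusted p = 0.0043 to 0.0396).

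Car12 spans the membrane and is found on the basolateral side of epithelia. The control mice measured 4.10, 4.28, 4.68, 5.90 and 6.52 CPM, the 2% RPS mice 4.15, 5.86, 6.11, 6.12 and 7.44 CPM, and the 5% RPS mice 5.47, 7.17, 7.63, 8.62 and 9.22 CPM. The 10% RPS mice measured 5.93, 7.45, 8.33, 8.62 and 11.7 CPM, the highest in RS10_784, the mouse of this group with pancreatic transcripts. In 4 of 5 mice on 5% RPS and 4 of 5 on 10% RPS the value exceeded the highest control, and the remaining mouse of each group fell within the control range. These values rest on 109 to 299 counts a mouse. The log2 fold change at 10% RPS was 0.72 ± 0.19 (95% interval 0.34 to 1.11), which did not pass in edgeR (adjusted p = 0.0890) and passed in DESeq2 (adjusted p = 0.0118). DESeq2 thus called 2 of 8 members at 10% RPS, against 1.24% of the genes it tested. Without the mouse at 5.93 CPM, RS10_727, the log2 fold change was 0.83 and Car12 was called by edgeR as well (adjusted p = 0.0295). In that fit edgeR called 188 of 18096 tested genes at 10% RPS, against 7 of 17893 in the main fit.

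Over the dose series Car12 rose by 0.072 ± 0.017 log2 units per percent RPS (edgeR adjusted p = 0.0322). With Car4, 2 of 8 members thus had a trend, against 2.1% of all tested genes, and both rose, against 1.15% with a rising trend. The Car12 trend did not pass without the 3 mice whose labels disagree (edgeR adjusted p = 0.0745), with the treatment label (0.364), or without RS10_707 or RS10_708 of the controls or RS10_725, RS10_729 or RS10_784 of the 10% group (0.0539 to 0.129). With the treatment label Car4 had no trend by the same test either (edgeR adjusted p = 0.168), and 0 of all tested genes had one. Without the 3 mice, 56 of 17928 tested genes had a trend.

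**Figure D2:**
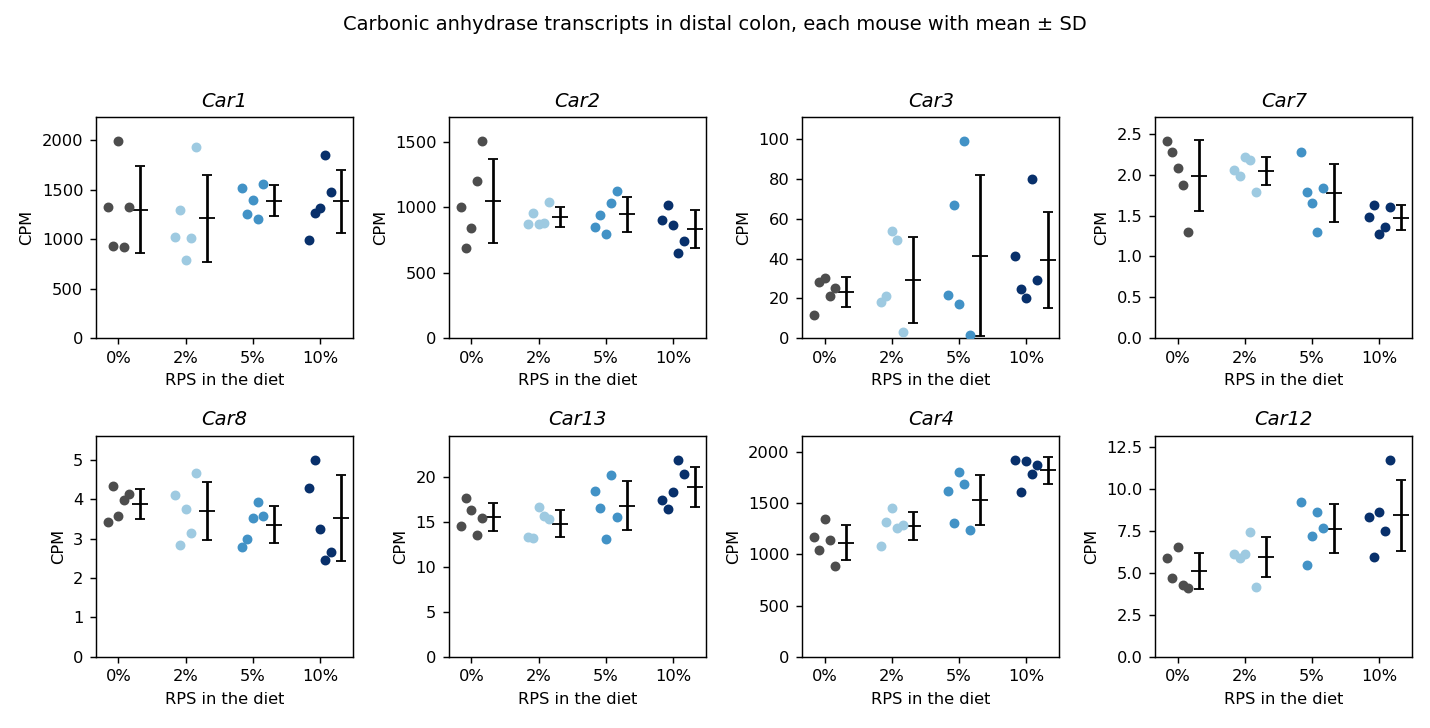
CPM of each of the 8 carbonic anhydrase genes (y axis, from 0) in each mouse (points) by RPS in the diet (x axis), with the mean and SD of 5 mice beside the points. Car4 and Car12 have their highest means at 10% RPS, 1825 and 8.41 CPM, and Car3 spreads from 1.74 to 99.1 CPM among the 5% mice.

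Car1 and Car2 are the abundant cytosolic enzymes of the colonic epithelium. Car1 measured 925, 929, 1329, 1329 and 1993 CPM in controls and 996, 1265, 1317, 1482 and 1854 CPM at 10% RPS. The 10% mice all lay inside the control range. Its log2 fold change was 0.09 ± 0.23 with a 95% interval of -0.39 to 0.57 that holds changes of either sign (edgeR adjusted p = 0.899). Car2 measured 692, 840, 1000, 1201 and 1504 CPM in controls and 648, 742, 866, 900 and 1018 CPM at 10% RPS. The groups overlapped, with 1 mouse at 10% RPS below the lowest control and 2 controls above every 10% mouse. The log2 fold change of Car2 was -0.33 ± 0.16 (95% interval -0.66 to 0.01, edgeR adjusted p = 0.339). At 2 and 5% RPS the values were -0.18 and -0.14, and without the control mouse at 1504 CPM, RS10_708, the value at 5% RPS was 0.02.

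Car13 is a cytosolic enzyme found in many tissues and in the gut. It measured 13.6, 14.6, 15.5, 16.2 and 17.6 CPM in controls and 16.4, 17.4, 18.3, 20.3 and 21.9 CPM at 10% RPS. In 3 of 5 mice at 10% RPS it exceeded the highest control. The log2 fold change was 0.28 ± 0.11 (edgeR adjusted p = 0.240), and the slope of 0.033 ± 0.010 per percent RPS did not pass in edgeR (adjusted p = 0.0870) but passed in DESeq2 (adjusted p = 0.0422). DESeq2 gave 3 of 8 members a trend, against 5.61% of the genes it tested.

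Car7, a cytosolic isoform best known from neurons, was scarce, with 30 to 85 counts a mouse. It measured 1.30, 1.87, 2.08, 2.28 and 2.41 CPM in controls and 1.28, 1.36, 1.48, 1.61 and 1.63 CPM at 10% RPS. In 4 of 5 controls it was above every 10% mouse, and the fifth control overlapped them. The log2 fold change was -0.43 ± 0.18 (95% interval -0.80 to -0.07 without adjustment) with an edgeR adjusted p of 0.247, and the slope was -0.047 ± 0.016 (edgeR adjusted p = 0.113). Car8 encodes a protein that lacks carbonic anhydrase activity and binds the inositol trisphosphate receptor. It ranged from 3.43 to 4.34 CPM in controls and from 2.45 to 5.01 CPM at 10% RPS, a log2 fold change of -0.15 ± 0.18 (edgeR adjusted p = 0.761).

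Car3 is a cytosolic isoform with low activity that is abundant in fat, muscle and liver. It measured 11.5, 21.5, 25.2, 28.2 and 30.2 CPM in controls. Mice on 2% RPS had 3.05, 18.2, 21.5, 49.5 and 53.8 CPM, those on 5% had 1.74, 17.5, 21.8, 67.2 and 99.1 CPM, and those on 10% had 20.5, 24.9, 29.5, 41.4 and 79.9 CPM. The groups overlapped, and the lowest and highest values both came from mice on 5% RPS. Its spread within a diet was the widest of the members by coefficient of variation at 2, 5 and 10% RPS, up to 97.4% at 5%. Its log2 fold change of 0.75 ± 0.77 at 10% RPS was as large as that of Car4 and was smaller than its own SE (edgeR adjusted p = 0.690).

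**Figure D3:**
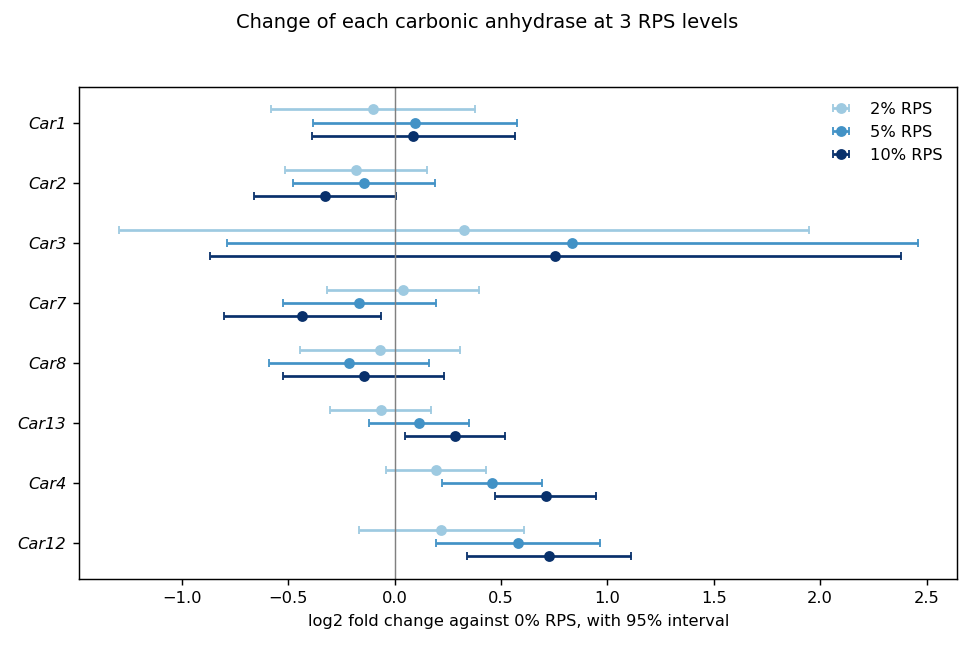
Log2 fold change against 0% RPS (x axis, points with 95% intervals from the edgeR fit) for each carbonic anhydrase gene (y axis) at 2, 5 and 10% RPS. The intervals of Car4 at 10% RPS (0.47 to 0.94) and Car12 (0.34 to 1.11) lie above 0, and those of Car1 and Car3 span it at every level.

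Over the 8 members, 5 log2 fold changes at 10% RPS were positive and 3 negative, with a median of 0.19 against -0.01 over all tested genes. At an unadjusted p under 0.05 there were 4 of 8, Car4, Car12 and Car13 higher and Car7 lower, against 15.2% of all tested genes. At 5% RPS edgeR called 0 of 8 members (0% of all tested genes), 2 of 8 had an unadjusted p under 0.05 (Car4 and Car12, against 9.19%), and DESeq2 and limma-voom called 0 (0.195% of all genes in DESeq2). At 2% RPS edgeR called 0 of 8 (0% of all tested genes), 0 had an unadjusted p under 0.05 (against 1.41%), and DESeq2 and limma-voom called 0 (0.00386% in DESeq2).

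The isoforms were set against each other as log2 ratios within a mouse, which do not depend on library scaling. Car4 over Car2 was -0.76, -0.08, 0.22, 0.59 and 0.68 in controls and 0.66, 1.10, 1.15, 1.34 and 1.46 at 10% RPS. In 4 of 5 mice at 10% RPS it exceeded the highest control. The mean was higher by 1.01, a 2.02-fold change of the ratio (exact two-sided permutation test, p = 0.0159, adjusted p = 0.159 over 12 tests). Car12 over Car2 differed by 0.995 (exact permutation p = 0.0317), Car4 over Car1 by 0.60 (exact permutation p = 0.0397) and Car12 over Car1 by 0.58 (exact permutation p = 0.0635), all with an adjusted p of 0.159. No ratio passed after adjustment at 10, 5 or 2% RPS, where 5 against 5 mice can give no p below 0.00794. All 12 differences were above 0, but they are built from the same Car4, Car12, Car2 and Car1 values, and the 3 RPS levels share their control mice. The signs over Car2 restate the means above, with Car4 and Car12 higher and Car2 lower at each RPS level. The members were chosen with earlier results of these data known, so these p-values are not an independent test. A single ratio at that smallest p could not pass on its own over 12 tests. This test therefore cannot decide whether the opposite signs of Car4 and Car2 at 10% RPS are a difference between the isoforms.

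**Figure D4:**
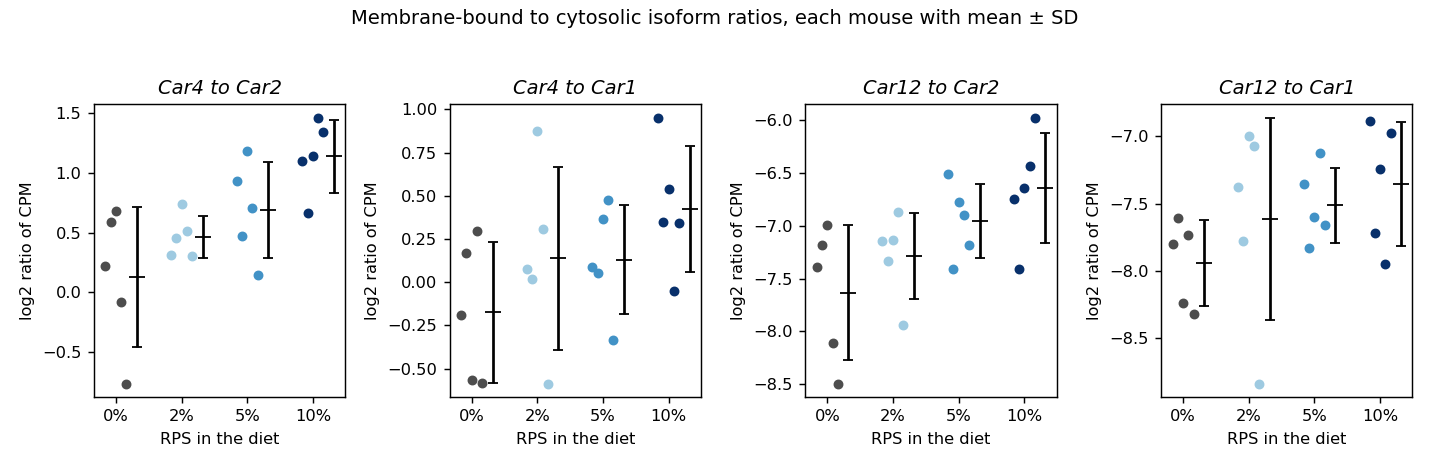
Log2 ratio of membrane-bound Car4 or Car12 to cytosolic Car2 or Car1 (y axis) in each mouse (points) by RPS in the diet (x axis), with mean and SD of 5 mice. The mean of Car4 over Car2 goes from 0.13 at 0% to 1.14 at 10% RPS, and its lowest 10% mouse (0.66) lies just under the highest control (0.68).

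Members were then followed across the 20 mice by correlation of log2 CPM, with 28 pairs computed. The permutations, here and for the marker lists below, ran over all 20 mice regardless of diet. Their p-values therefore include shifts between diets that both sides share, and no p was computed within diets. Car4 and Car12 had the highest correlation of any pair (Pearson r = 0.771, Spearman rho = 0.740, permutation p = 7e-05 and 0.00028, adjusted p = 0.00196 and 0.00784). Without the 2 mice farthest from the median r was 0.713, and within diets it was 0.481. Car2 had a negative correlation with Car4 (r = -0.508, rho = -0.444, permutation p = 0.0211 and 0.0516, adjusted p = 0.118 and 0.145), with r = -0.221 without the 2 farthest mice and -0.432 within diets. The neighbours Car1 and Car2 on chromosome 3 had r = -0.074 (rho = -0.125, permutation p = 0.755 and 0.599, adjusted p = 0.783 and 0.645, r = -0.076 without the 2 farthest mice and -0.041 within diets).

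Markers of cell types moved with several members, among 104 relations computed between 8 members and 13 marker lists. Car4 followed the mean log2 CPM of 7 surface colonocyte genes (r = 0.903, rho = 0.895, permutation p = 1e-05 for both, the smallest that 100000 permutations give, adjusted p = 0.00052), with r = 0.868 without the 2 farthest mice and 0.712 within diets. Car12 followed the same list (r = 0.781, rho = 0.705, permutation p = 4e-05 and 0.00073, adjusted p = 0.00139 and 0.0190), with r = 0.675 without the 2 farthest mice and 0.518 within diets. The cytosolic Car13 followed it too (r = 0.680, rho = 0.641, permutation p = 0.00094 and 0.00292, adjusted p = 0.0140 and 0.0337), with r = 0.666 without the 2 farthest mice and 0.443 within diets. Car12 also followed the 7 epithelial genes (r = 0.694, rho = 0.675, permutation p = 0.00065 and 0.00138, adjusted p = 0.0113 and 0.0239). Its r was 0.557 without the 2 farthest mice and 0.560 within diets. Car13 and the epithelial genes had r = 0.659 (rho = 0.547, permutation p = 0.00146 and 0.0141, adjusted p = 0.0169 and 0.117), with 0.493 and 0.616. Car1 and the epithelial genes passed by rho alone (rho = 0.623, permutation p = 0.00417, adjusted p = 0.0434), with r = 0.497 (adjusted p = 0.144). The surface colonocyte list itself summed to 10469 to 13592 CPM in controls and 12602 to 15534 CPM at 10% RPS. All 7 of its genes had positive fold changes at 10% RPS with a median log2 of 0.43. edgeR called 0 of them, 5 had an unadjusted p under 0.05 (15.2% of all tested genes did), DESeq2 called 2 (against 1.24%), and 4 had a trend by edgeR (against 2.1%). With the list's score as a covariate, an alternative chosen after seeing these values, the log2 fold change of Car4 was 0.29 and neither Car4 nor Car12 passed at 10% RPS or over the dose series. Under that covariate edgeR passed 0 of all tested genes in either test (2.44% had an unadjusted p under 0.05 at 10% RPS), and the score itself differed between diets (9.15 ± 0.21 at 0% and 9.65 ± 0.12 at 10% RPS, SD, n = 5). The part of these cells in the Car4 and Car12 differences was not tested. With the score of 7 epithelial genes as a covariate the log2 fold change at 10% RPS was 0.64 for Car4 (edgeR adjusted p = 0.0654). For Car12 it was 0.51 (edgeR adjusted p = 0.386). Under this covariate edgeR called 0 of all tested genes at 10% RPS.

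Car3 followed the adipocyte list (r = 0.982, rho = 0.929, permutation p = 1e-05 for both, adjusted p = 0.00052), with r = 0.958 without the 2 farthest mice and 0.984 within diets. The list, which includes Adipoq and Plin1, summed to 51.1 to 103 CPM in controls and 34.0 to 274 CPM at 5% RPS. Mouse RS10_721, with 99.1 CPM of Car3, had the highest adipocyte score, and RS10_724, with 1.74 CPM, had the lowest. Car2 and the 7 goblet cell genes had r = -0.730 (rho = -0.771, permutation p = 0.00028 and 0.00016, adjusted p = 0.00582 and 0.00555), with -0.605 without the 2 farthest mice and -0.705 within diets. Car2 and the red cell list passed by rho alone (rho = -0.651, permutation p = 0.00255, adjusted p = 0.0337), with r = -0.442 (adjusted p = 0.213). Car13 and the goblet list had r = 0.730 (rho = 0.693, permutation p = 0.00026 and 0.00097, adjusted p = 0.00582 and 0.0202), with 0.565 without the 2 farthest mice and 0.689 within diets. Car8 and the scarce squamous epithelium list had r = -0.669 (rho = -0.647, permutation p = 0.00111 and 0.00272, adjusted p = 0.0144 and 0.0337), with -0.565 and -0.641. Car4 and the endothelium list had r = -0.616 (rho = -0.600, permutation p = 0.00369 and 0.00565, adjusted p = 0.0384 and 0.0534), with -0.415 and -0.478.

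**Figure D5:**
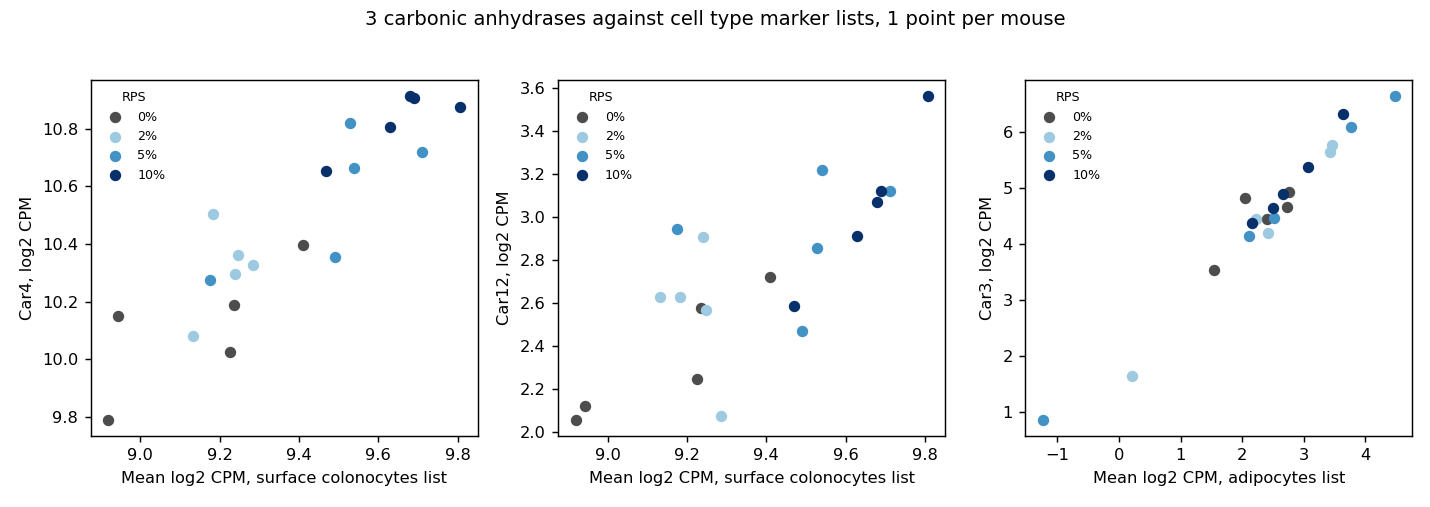
Log2 CPM of Car4, Car12 and Car3 (y axes) against the mean log2 CPM of a marker list (x axes, surface colonocytes for the first pair and adipocytes for Car3), with 1 point per mouse coloured by RPS level. Car3 lies almost on a line with the adipocyte list (r = 0.982), and Car4 lies along the surface colonocyte list (r = 0.903).

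The genes most like each member, among 15224 with a mean of at least 1 CPM, are given by Pearson r over the 20 mice as a description. For Car4 they were Ppp1r14d (0.915), Cpne2 (0.907) and 4732471J01Rik (0.892). For Car3 they were Plin1 (0.979), which coats fat droplets, Adipoq (0.975), the fat hormone adiponectin, and Cidec (0.970), a fat droplet protein. For Car1 they were Gdi2 (0.855), Mif (0.845) and Mvp (0.839), for Car2 Zfp2 (0.848), Actr8 (0.846) and Pttg1 (0.843), and for Car13 Elovl6 (0.867), Tank (0.857) and Ythdf3 (0.856). Car4 and its nearest gene had r = 0.782 within diets.

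Of the other 8 carbonic anhydrase genes in the table, 6 were tested. The mitochondrial Car5a and the secreted Car6 had 12 and 9 counts in all 20 mice and were not tested. Car9, a membrane-spanning isoform induced by low oxygen, measured 42.6, 47.6, 48.2, 49.3 and 70.0 CPM in controls and 48.6, 57.5, 74.2, 86.9 and 97.7 CPM at 10% RPS. In 3 of 5 mice it exceeded the highest control. Its log2 fold change of 0.50 ± 0.15 did not pass (edgeR adjusted p = 0.122), and its slope of 0.053 ± 0.013 per percent RPS passed (edgeR adjusted p = 0.0404). The slope no longer passed when any of 12 of the 20 mice was left out, with edgeR adjusted p up to 0.132. It did not pass with the treatment label either, where 0 of all tested genes had a trend. Car5b, Car10, Car11, Car14 and Car15 passed neither test, with log2 fold changes from -0.61 for Car10 to 0.25 for Car15. Car14 had a log2 fold change of -0.27 ± 0.20 (edgeR adjusted p = 0.551), with 3 of 5 mice at 10% RPS below the lowest control.

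The bicarbonate and proton transport list held 21 genes, of which 19 were tested. At 10% RPS edgeR called 0 of 19, although 8 had an unadjusted p under 0.05 (against 15.2% of all tested genes). DESeq2 called 2, against 1.24% of the genes it tested. Slc26a3, the apical chloride and bicarbonate exchanger, was higher by 0.57 ± 0.10 on the log2 scale (edgeR adjusted p = 0.0155), which is under the 1.5-fold threshold. Slc9a3, the apical sodium and proton exchanger, had 8.23 ± 7.61 CPM in the 5 controls and 90.9 ± 50.4 CPM in the 5 mice on 10% RPS (SD), with a log2 difference of 3.47 ± 0.79 (edgeR adjusted p = 0.0821, DESeq2 0.000891). Nherf1, a scaffold that holds Slc9a3 at the membrane, differed by 0.50 ± 0.12 (edgeR adjusted p = 0.0861). Best2, a bicarbonate channel of goblet cells, differed by -0.75 ± 0.15 (edgeR adjusted p = 0.0659, DESeq2 0.00125).

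By edgeR 4 of 19 transport genes had a trend, against 2.1% of all tested genes, with Slc26a3 (adjusted p = 0.00423), Slc9a3 (0.0372) and Nherf1 (0.0239) rising and Best2 (0.0117) falling. These trends depended on the disputed labels. With the treatment label 0 of all tested genes had a trend, and without the 3 mice whose labels disagree 56 of 17928 had one. Slc4a4, the basolateral sodium bicarbonate cotransporter, Slc4a2, a basolateral anion exchanger, and Cftr, the apical chloride channel, had log2 fold changes of 0.29 ± 0.27, 0.14 ± 0.10 and 0.10 ± 0.17 at 10% RPS and passed neither test. The list's median log2 fold change was 0.14, against -0.01 over all tested genes.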

How the data were processed

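Polyadenylated RNA of distal colon was sequenced from 1 stranded library per mouse. Per the labels and the study's methods, the authors trimmed single-end reads, mapped them to GRCm39 in CLC Genomics Workbench and deposited raw read counts per gene, without normalization or pooling. The annotation release and the treatment of reads matching several genes are not given in the sources used here. Of 26619 gene identifiers, 26338 were found in GENCODE vM39, which gave symbols, positions (1-based) and lengths. Groups came from the description label. Identical libraries numbered 0, and pairs of mice within a diet differed beyond sampling noise (chi-square of 9.10 to 62.9 per degree of freedom). Nothing says that mice were housed apart, so p-values measure the spread between these mice.

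Counts were analysed in R 4.3.3 with edgeR 4.0.16. Genes passing filterByExpr (minimum count 10; 17893 of the 26004 with any count) were scaled by TMM and tested by the quasi-likelihood F-test (robust) in 1 fit over 4 diets, with Benjamini-Hochberg adjustment over all tested genes. The trend used RPS percent as a number, with no fold threshold. CPM are counts per megacount after TMM scaling, log2 CPM used a prior count of 2, and SE is the absolute log2 fold change over the square root of F. Ratios were tested by an exact permutation test in numpy 2.4.6 and correlations with 100000 permutations. Alternatives were DESeq2 1.42.0, limma-voom (limma 3.58.1), RLE size factors, unscaled library sizes, no low count filter, a prior count of 0.5 for ratios, only the diets compared, covariates, other labels and each mouse left out.

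The members and lists were chosen with earlier results of these data known. Named genes are the members, the other carbonic anhydrases, 5 transport genes whatever their values (Slc26a3, Slc9a3, Slc4a4, Slc4a2, Cftr), transport genes called or with a trend, and the 3 genes most correlated with each member of at least 10 CPM. Beside surface colonocytes, epithelium, goblet cells, adipocytes and pancreas, the marker lists were crypt base, skeletal muscle, smooth muscle, red cells, squamous epithelium, endothelium, enteric neurons and glia, and clock genes. At 10% RPS edgeR called 0 genes in each of the 13 lists. Of 83 tested list genes 11 had an unadjusted p under 0.05, against 15.2% of all tested genes. DESeq2 called 3 of the list genes, against 1.24% of the genes it tested. RNA counts do not measure protein or enzyme activity.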

Additional observations from a re-analysis of the deposited data

How the results depend on the processing

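Members called at 10% RPS numbered 1 in the main test. They numbered 2 with DESeq2 and with DESeq2 without mouse RS10_721. They numbered 0 with only the diets compared, with the treatment label, without the 3 mice whose labels disagree, and with the epithelial or surface colonocyte score as covariate. Of all tested genes, edgeR called 3 with only the diets compared and 0 in each of the other settings just named. With each mouse left out the members called numbered 1 to 2. In these left-out fits edgeR called 5 to 188 of all tested genes at 10% RPS. It gave a trend to 24 to 1148 of them and any diet difference to 0 to 42, so the ranges for members and transport genes below follow a moving background. Members with a trend numbered 2, against 3 with DESeq2, with or without RS10_721, 0 with the treatment label and with the surface colonocyte score, 1 without the 3 mice and with the clock or epithelial score, and 1 to 3 with each mouse left out. Members with any diet difference numbered 1, against 2 with DESeq2, with or without RS10_721, 0 with library sizes as counted, the treatment label, without the 3 mice and with the clock, epithelial or surface colonocyte score, and 0 to 1 with each mouse left out. Transport genes called at 10% RPS numbered 0, against 2 with DESeq2, with or without RS10_721, and with the clock score, 1 with no fold threshold, and 0 to 3 with each mouse left out. Over all tested genes edgeR gave a trend to 0 with the treatment label or the surface colonocyte score, and to 56 without the 3 mice. It gave a trend to 213 with the clock score and to 22 with the epithelial score. Any diet difference passed for 0 with the treatment label, without the 3 mice, or with the epithelial or surface colonocyte score. It passed for 3 with library sizes as counted and for 17 with the clock score. The cause of the changed counts was not tested. At 5 and 2% RPS the count of members called was 0 under every alternative run, and no isoform ratio changed direction or side of the threshold.

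Directions turned for the genes below, of which edgeR called none at 10% RPS. Among them Slc9a3 was called by DESeq2 at 10% RPS and had a trend by edgeR. With the surface colonocyte score, chosen after seeing the data, the log2 fold change at 10% RPS was -0.208 for Car1, 0.201 for Car2, -0.553 for Car3, 0.0857 for Car8, 0.122 for Car10, -0.0835 for Car15, -0.111 for Slc9a3 and -0.278 for Cftr, and at 5% RPS -0.0870 for Car1, 0.227 for Car2, -0.320 for Car3 and -0.0625 for Car13. The Slc9a3 slope was then -0.0529. With the epithelial score it was -0.110 for Car1 and -0.0946 for Cftr at 10% RPS, and -0.0942 for Car1 and -0.0306 for Car13 at 5%. With the clock score Cftr was -0.0629. With the treatment label Car14 was 0.0545 at 10% RPS and Car1 -0.0177 at 5%. With each mouse left out, the value at 10% RPS lay between -0.0396 and 0.298 for Car1 and between -0.245 and 0.0985 for Car5b, and at 5% RPS between -0.00508 and 0.299 for Car1 and between -0.260 and 0.0151 for Car2. Scaling moved the median of all genes by less than 0.1 on the log2 scale. No paired analysis was possible because mouse numbers are unique to an animal and replicate numbers follow accession order only.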
